A study of Mus musculus with 11 samples.

Results

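The POU family genes examined here are Pou5f1, Pou3f1, Pou3f2, Pou3f3, Pou3f4, Pou2f1 and Pou4f1, and the data are the ChIP-seq peaks that lay at them. A peak was assigned to a gene when its midpoint fell in the gene body or within 50 kb on either side, by the GENCODE vM1 annotation of the mouse genome build mm9. This gave 553 peaks of the 1004445 listed, 275 in the EpiSC lists and 278 in the activin-free lists. Another 6 peaks were treated apart: they were the peaks of the POU5F1 lists over coding exons of Pou5f1 and of the POU3F1 lists over coding exons of Pou3f1, which the expression vectors also carry.

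EpiSCs are stem cells of the epiblast, and the line used was of the 129/Sv strain and grown without feeders with activin at 20 ng/ml and Fgf2 at 10 ng/ml. The second culture was EpiSCs kept for 18 h without activin, also with Fgf2 at 10 ng/ml. In each culture ZIC2, OTX2, SOX2, POU5F1 or POU3F1 was expressed by transient transfection, with the biotinylation sequence BLRP at its C-terminus and the biotin ligase BirA on the same plasmid, so every library carried exogenous TF in addition to any endogenous TF, and chromatin was collected with streptavidin. There was 1 library for each TF in each culture, giving 10 peak lists, and the input library was not analysed further. No value therefore has a replicate error, no test between the cultures was possible, and a difference between 2 lists is one between those libraries. The lists contain no reads, the depth is unknown, and they hold no expression values by which the cells could be checked. The ZIC2 lists held 122053 peaks in EpiSCs and 109305 in activin-free cells. The numbers were 103281 and 114041 for OTX2, 63751 and 87907 for SOX2, 62457 and 126908 for POU5F1, and 112753 and 101989 for POU3F1.

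POU proteins bind DNA with a POU-specific domain and a POU homeodomain joined by a linker, and the octamer ATGCAAAT is the classical sequence that both domains contact together. Pou5f1 encodes OCT4, a core factor of pluripotent cells, and is known to be governed by separate proximal and distal enhancers upstream of its promoter. Pou3f1, Pou3f2, Pou3f3 and Pou3f4 form the class III group, known from the developing nervous system, and Pou3f1 is in addition active in primed epiblast. Pou2f1 encodes OCT1, which is present in most cell types, and Pou4f1 encodes BRN3A, a factor of sensory neurons. Among the profiled TFs, ZIC2 is a zinc finger protein, OTX2 a homeodomain protein and SOX2 an HMG box protein, and SOX2 is a well known partner of POU5F1 on DNA.

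Sequences at the sites that the results below turn on are printed from mm9, 5′ to 3′ on the strand of the gene. The first group shows sites at which POU5F1 and POU3F1 peaks overlapped and an octamer was found, with the octamer (ATGCAAAT or its complement ATTTGCAT) in capitals.
Pou3f3, 14.6 kb upstream, chr1:42739429-42739548, plus strand: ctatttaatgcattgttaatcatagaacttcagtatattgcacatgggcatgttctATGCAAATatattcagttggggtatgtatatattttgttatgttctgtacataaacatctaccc
Pou3f2, 18.2 kb upstream, chr4:22433574-22433693, minus strand: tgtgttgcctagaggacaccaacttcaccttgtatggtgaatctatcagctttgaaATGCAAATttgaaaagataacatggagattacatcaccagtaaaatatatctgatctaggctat
Pou3f2, 29.6 kb downstream, chr4:22385201-22385320, minus strand: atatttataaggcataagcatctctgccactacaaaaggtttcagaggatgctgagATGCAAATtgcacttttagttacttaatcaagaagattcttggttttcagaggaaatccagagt
Pou3f4, 14.8 kb downstream, chrX:108024571-108024690, plus strand: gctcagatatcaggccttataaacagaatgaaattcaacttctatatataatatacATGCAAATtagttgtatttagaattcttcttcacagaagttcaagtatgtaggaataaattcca
Pou2f1, intronic site with the highest POU3F1 score, chr1:167865276-167865395, minus strand: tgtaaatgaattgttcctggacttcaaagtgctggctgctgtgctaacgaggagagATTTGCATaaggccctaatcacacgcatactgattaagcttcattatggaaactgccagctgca
Pou4f1, 51.5 kb downstream, chr14:104815378-104815497, minus strand: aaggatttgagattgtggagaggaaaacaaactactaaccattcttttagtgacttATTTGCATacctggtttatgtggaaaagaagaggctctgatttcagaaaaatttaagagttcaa

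The next group shows the highest peaks of the POU5F1 lists near Pou5f1 and Pou3f1. No octamer was found there, and capitals mark the longest stretch in which purines and pyrimidines alternate within 100 bp of the midpoint.
Pou5f1, 39.9 kb downstream, chr17:35682786-35682986, plus strand: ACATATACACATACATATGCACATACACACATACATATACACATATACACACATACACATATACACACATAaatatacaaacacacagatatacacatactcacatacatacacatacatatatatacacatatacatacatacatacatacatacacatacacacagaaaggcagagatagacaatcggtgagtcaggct
Pou3f1, 32.5 kb upstream, chr4:124302266-124302466, plus strand: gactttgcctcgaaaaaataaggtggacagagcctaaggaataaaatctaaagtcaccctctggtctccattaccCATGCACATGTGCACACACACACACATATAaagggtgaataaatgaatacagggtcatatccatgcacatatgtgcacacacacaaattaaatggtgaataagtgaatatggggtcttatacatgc

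The last group shows sites of the other TFs, with the SOX sequence ACAAAG (complement CTTTGT), the OTX sequence GGATTA or the ZIC sequence CAGCAGG (complement CCTGCTG) in capitals.
Pou5f1, highest SOX2 peak, 3.20 kb upstream, chr17:35639798-35639917, plus strand: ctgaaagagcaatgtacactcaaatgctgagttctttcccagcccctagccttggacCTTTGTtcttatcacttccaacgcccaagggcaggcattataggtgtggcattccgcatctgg
Pou3f2, ZIC2, OTX2 and SOX2 site, 10.1 kb upstream, chr4:22425863-22425982, minus strand: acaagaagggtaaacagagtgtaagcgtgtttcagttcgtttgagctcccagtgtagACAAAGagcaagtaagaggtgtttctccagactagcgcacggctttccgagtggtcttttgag
Pou4f1, part under SOX2 and POU5F1 of the site at the TSS, chr14:104867881-104868000, minus strand: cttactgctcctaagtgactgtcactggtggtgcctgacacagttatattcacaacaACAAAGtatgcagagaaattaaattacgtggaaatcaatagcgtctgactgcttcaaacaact
Pou2f1, highest OTX2 peak, intron, chr1:167907868-167907987, minus strand: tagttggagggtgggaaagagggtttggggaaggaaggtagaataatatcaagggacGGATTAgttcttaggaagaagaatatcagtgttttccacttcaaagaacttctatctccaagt
Pou3f1, ZIC2 peak over the gene, chr4:124334102-124334221, plus strand: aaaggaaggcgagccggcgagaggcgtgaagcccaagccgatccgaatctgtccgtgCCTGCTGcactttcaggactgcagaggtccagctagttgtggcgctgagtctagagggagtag

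The 7 genes fell into contrasting groups by the TFs that were listed at them. At Pou5f1 and Pou3f1 most EpiSC peaks were of ZIC2, which had 30 and 26 peaks there, while POU3F1 had 1 and 0. At Pou3f4 the reverse was found, with 16 POU3F1 peaks and 2 ZIC2 peaks. Pou3f2, Pou2f1 and Pou4f1 had peaks of all 5 TFs in more even numbers, and Pou3f3 had 13 ZIC2 peaks and 1 or 2 of each of the others. In the activin-free lists ZIC2 again led at Pou5f1, Pou3f1 and Pou3f3. At Pou3f4 POU3F1 had 13 activin-free peaks against 10 of POU5F1, but 9 each were left with a score of at least 100. At Pou2f1 and Pou4f1 the order of the TFs depended on the score. As listed, ZIC2 had most peaks at Pou2f1 in EpiSCs (24) and OTX2 in activin-free cells (26), but with a score of at least 100 OTX2 had most in both (15 and 18). At Pou4f1 POU3F1 (9) and SOX2 (9) led as listed, and ZIC2 led in both cultures (6 and 6) with a score of at least 100. Among the 50000 highest-scoring peaks of every list, POU3F1 led at Pou4f1 in EpiSCs (3 against 2 of ZIC2) and ZIC2 in activin-free cells (4). In that set OTX2 and SOX2 had 14 each at Pou2f1 in EpiSCs, and OTX2 led there in activin-free cells (16).

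**Figure D1:**
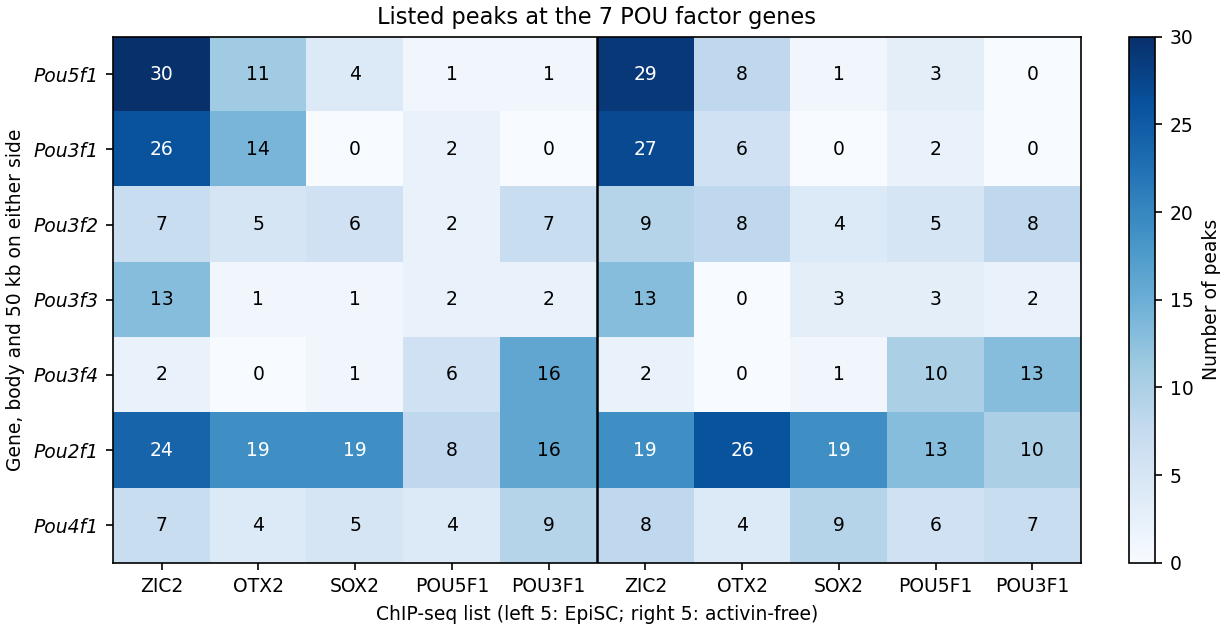
Number of peaks at each of the 7 POU genes (rows) in each of the 10 lists (columns), the EpiSC lists on the left and the activin-free lists on the right. ZIC2 numbers are highest at Pou5f1 and Pou3f1 (30 and 26 in EpiSCs), and POU3F1 has 16 peaks at Pou3f4 and 0 at Pou3f1, where the peak over the coding exon is left out.

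Each count was set beside the same count for all 22367 protein-coding genes. In EpiSCs 7 of the 7 genes had a ZIC2 peak, against 93.1% of all genes, and 6 had an OTX2 peak, against 93.3%. SOX2 peaks were at 6 genes against 75.0%, POU5F1 peaks at 7 against 77.3% and POU3F1 peaks at 6 against 47.8%. In activin-free cells ZIC2 had a peak at 7 genes against 92.3%, POU5F1 at 7 against 89.5%, SOX2 at 6 against 85.6%, OTX2 at 5 against 95.6% and POU3F1 at 5 against 53.0%. For every TF except POU3F1 in EpiSCs, most of all genes had at least 1 peak in windows of this size.

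The density of peaks was compared in the same way. The median POU3F1 density of the 7 genes was 6.74 peaks per 100 kb in EpiSCs, whereas the median of all genes was 0, and the 6 genes above it are those with a POU3F1 peak. For SOX2 the medians were 3.82 and 1.44, with 4 of 7 above, for ZIC2 10.1 and 6.80, with 5 above, and for POU5F1 1.97 and 1.43, with 6 above. OTX2 went the other way, with 4.92 peaks per 100 kb at the 7 genes and 6.21 over all genes, and 3 of 7 above. In activin-free cells the median at the 7 genes and over all genes was 4.21 and 0.655 for POU3F1, 4.92 and 2.83 for POU5F1, 8.85 and 5.86 for ZIC2, 2.91 and 2.09 for SOX2, and 5.83 and 5.72 for OTX2.

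**Figure D2:**
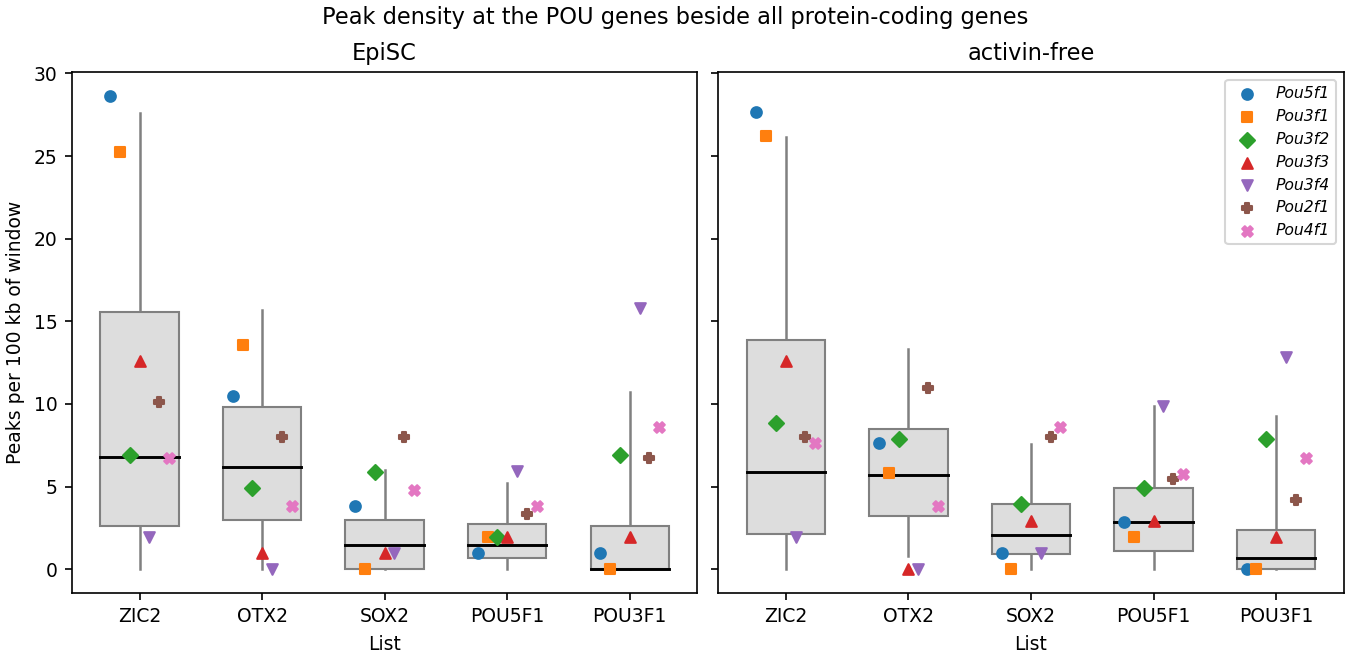
Number of peaks per 100 kb of gene window for each TF and culture. Coloured points are the 7 POU genes, boxes the quartiles and black marks the median of all 22367 protein-coding genes, with lines from the 5th to the 95th percentile. The POU3F1 density of Pou3f4 (15.8 in EpiSCs) and the ZIC2 densities of Pou5f1 and Pou3f1 (28.6 and 25.2) lie far above the medians of 0 and 6.80.

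By EpiSC density the order for ZIC2 was Pou5f1, Pou3f1, Pou3f3, Pou2f1, Pou3f2, Pou4f1 and Pou3f4, from 28.6 to 1.98 peaks per 100 kb. The order for POU3F1 ran nearly opposite, from 15.8 at Pou3f4 through 8.61 at Pou4f1, 6.88 at Pou3f2, 6.74 at Pou2f1, 1.94 at Pou3f3 and 0.955 at Pou5f1 to 0 at Pou3f1. Pou3f2 and Pou4f1 had the same number of ZIC2 peaks, 7, and in the absence of replicates neighbours as close as these cannot be ordered. The base composition of the windows moved with both orders: GC content was 50.1% at Pou3f1, 49.4% at Pou5f1, 44.8% at Pou3f3, 41.6% at both Pou2f1 and Pou4f1, 41.1% at Pou3f2 and 35.9% at Pou3f4, and the median of all genes was 44.3%. Over the 7 genes Spearman's rho between GC content and EpiSC density was 0.93 for ZIC2 and -0.96 for POU3F1. Over all 22367 genes it was 0.93 and -0.72, so the 7 genes followed a relation that is present across the genome. These genes share the libraries and are not independent samples, and the part of base composition in the counts was not tested.

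Pou5f1 (ENSMUSG00000024406.9, chr17:35642982-35647721, plus strand) had 47 EpiSC peaks and 41 activin-free peaks in a window that also holds Cchcr1, Cdsn, H2-Q10, Psors1c2 and Tcf19. Its density of all peaks together was higher than that of 98.8% of genes in EpiSCs. ZIC2 made up 63.8% of its EpiSC peaks. The numbers for ZIC2, OTX2, SOX2, POU5F1 and POU3F1 were 30, 11, 4, 1 and 1 in EpiSCs and 29, 8, 1, 3 and 0 in activin-free cells, so that SOX2 and OTX2 had fewer peaks in the latter and POU5F1 more. A ZIC2 peak at chr17:35640734-35643814 lay over the promoter with a score of 2029 in EpiSCs and 3100 in activin-free cells. The score is the p-value of a peak on the scale of -10 log10 as given by the peak caller, and 3100 is its value for a large number of the highest peaks. OTX2 peaks flanked this region, one 2.34 kb upstream with a score of 168 in EpiSCs (141 in activin-free cells) and one in the gene at 1.23 kb downstream of its start with a score of 410 (597). The region from chr17:35640251 to 35647079, over which 8 peaks of ZIC2, OTX2 and SOX2 followed one another, was the site of 3 TFs at this gene. No stretch was common to all 8 peaks, but peaks of ZIC2, OTX2 and SOX2 all covered chr17:35640780-35641036.

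The peak with the highest SOX2 score at any of the 7 genes was 3.20 kb upstream of the start of Pou5f1, at chr17:35639418-35640154. It spanned 737 bp, its score was 2516, and 3 other peaks of the whole EpiSC SOX2 list scored higher. In the activin-free SOX2 list no peak overlapped it. Of the 20 EpiSC SOX2 peaks with a score of at least 1000, 19 met an activin-free SOX2 peak and this one did not. All 11174 ZIC2, 228 OTX2, 2131 POU5F1 and 8490 POU3F1 peaks at that score met a peak of the same TF in the other culture. What lies behind this difference between the SOX2 libraries was not tested. Whether this peak marks SOX2 binding was not tested either, and its score was not checked against reads. The ZIC2 peak beneath it, at chr17:35638872-35640014, was listed in both cultures with scores of 524 and 694, respectively. A second SOX2 peak, 1.90 kb upstream with a score of 118, was likewise absent from the activin-free list. Of the 4 SOX2 peaks at Pou5f1, the one 20.1 kb upstream was listed in both cultures, with scores of 51.8 and 56.2, and the one 15.5 kb upstream, with a score of 50.3, was not. The sequence of the high peak holds 1 copy of the SOX sequence, printed above.

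POU5F1 and POU3F1 lists had few peaks around Pou5f1 itself. Over the coding exons POU5F1 had 2 peaks in each culture, all with a score of 3100, which covered 100% of the 1122 coding bases. They are set apart because vector DNA has the same sequence, although they also covered 50.7% of the intron bases in EpiSCs and 35.8% in activin-free cells. The part of vector DNA in them was not tested. Away from the gene, the POU5F1 peak at chr17:35682223-35683550, 39.9 kb downstream, had a score of 630 in EpiSCs and 3100 in activin-free cells. A POU3F1 peak with a score of 75.6 overlapped it in EpiSCs, with none in activin-free cells. The stretch of alternating purines and pyrimidines shown in capitals above, made mostly of CA and TA, ran for 71 bp there. Activin-free cells had 2 further POU5F1 peaks, 17.8 kb upstream with a score of 132 and in an intron of Tcf19 with a score of 90.1.

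Pou3f1 (ENSMUSG00000078236.3, chr4:124334896-124337899, plus strand) consists of 1 exon. It had 42 EpiSC and 35 activin-free peaks, with 26, 14, 0, 2 and 0 peaks of ZIC2, OTX2, SOX2, POU5F1 and POU3F1 in EpiSCs and 27, 6, 0, 2 and 0 in activin-free cells. SOX2 was thus listed nowhere in the window in either culture, and neither was POU3F1 outside the coding exon. Of all genes, 75.0% had a SOX2 peak in EpiSCs. A ZIC2 peak at chr4:124333361-124337631 covered the whole coding sequence and the TSS with a score of 3100 in both cultures. The POU3F1 peak over the coding exon, set apart because of the vector, had the same score in both cultures. The ZIC2 peak began upstream of the gene start.

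The OTX2 peaks of Pou3f1 decreased from 14 to 6, and all 6 of the activin-free peaks overlapped EpiSC peaks. Of these 6, 5 had a lower score in activin-free cells, for example 264 and 152 at 9.36 kb upstream. The 8 EpiSC OTX2 peaks without a counterpart had scores from 55.8 to 136. The window also holds Utp11l, Fhl3 and 3100002H09Rik, and the ZIC2 peak with the highest score at any of the 7 genes in activin-free cells, 3203, was in an intron of Fhl3, 43.3 kb downstream. The one site of 3 TFs was at chr4:124321893-124324627, 11.6 kb upstream, with scores of 2731 for ZIC2, 125 for OTX2 and 79.2 for POU5F1. ZIC2 and OTX2 remained there in activin-free cells and POU5F1 was not listed. The other POU5F1 peak, at chr4:124301903-124302829, 32.5 kb upstream, had a score of 1274 in EpiSCs and 3100 in activin-free cells and an alternating stretch of 30 bp, printed above.

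Pou3f2 (ENSMUSG00000052621.2, chr4:22413791-22415480, minus strand), which encodes BRN2, had 27 EpiSC and 34 activin-free peaks and no other protein-coding gene in its window. The numbers for ZIC2, OTX2, SOX2, POU5F1 and POU3F1 were 7, 5, 6, 2 and 7 in EpiSCs and 9, 8, 4, 5 and 8 in activin-free cells. Its SOX2 density was above that of 94.3% of genes in EpiSCs and its POU3F1 density above that of 89.0%. ZIC2 covered the whole coding sequence with scores of 2908 and 2743. Upstream, at chr4:22424612-22426541, peaks of ZIC2, OTX2 and SOX2 overlapped with scores of 451, 226 and 132 in EpiSCs and 456, 182 and 141 in activin-free cells. All 3 values of this site were thus close in the libraries of both cultures.

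POU3F1 and POU5F1 peaks at Pou3f2 overlapped at a pair of sites on either side of the gene, both with an octamer in the stretch that the peaks shared, as printed. At the downstream site it lay more than 100 bp from the midpoints of both EpiSC peaks. At 29.6 kb downstream the POU5F1 and POU3F1 scores were 225 and 543 in EpiSCs, and in activin-free cells POU5F1 had a score of 1176 and the POU3F1 peak was replaced by a pair with scores of 252 and 180.0. At 18.2 kb upstream the scores were 117 and 393, and 198 and 278 in activin-free cells. At both sites POU5F1 was higher in the activin-free library, and at the upstream site POU3F1 was lower. At the downstream site both POU3F1 scores of the pair were lower, but a wide peak and narrower peaks over the same stretch cannot be compared directly. The highest EpiSC POU3F1 peak of this gene, 45.5 kb upstream, had scores of 791 and 357. The highest in the activin-free list, 8.01 kb upstream, had a score of 438. In activin-free cells peaks of ZIC2, OTX2, POU5F1 and POU3F1 ran together 7.38 kb upstream, at chr4:22421630-22424091. In EpiSCs this stretch had separate peaks of ZIC2 with a score of 604 and of POU3F1 with a score of 326.

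Pou3f3 (ENSMUSG00000045515.2, chr1:42753991-42757052, plus strand), which encodes BRN1, had the fewest peaks, 19 in EpiSCs and 21 in activin-free cells. ZIC2 accounted for 13 in each culture, OTX2 for 1 and 0, SOX2 for 1 and 3, POU5F1 for 2 and 3, and POU3F1 for 2 in each. POU5F1 and POU3F1 overlapped 14.6 kb upstream, at chr1:42738168-42740697, with scores of 2086 and 1654 in EpiSCs and 3100 and 2258 in activin-free cells. The EpiSC POU5F1 score was the highest of that list at the 7 genes, and 236 peaks of the whole list scored higher. The stretch shared by both peaks holds 4 octamers, one of which is printed. The other joint site, 22.3 kb upstream, had scores of 664 and 533 in EpiSCs and 3005 and 599 in activin-free cells, and no octamer was found in the shared stretch. The SOX2 peak at chr1:42758183-42759423, 4.81 kb downstream of the gene start, had scores of 273 and 532. A broad ZIC2 peak with a score of 1032 covered the whole coding sequence in EpiSCs. In activin-free cells 2 peaks with a highest score of 245 covered 99.3% of the coding bases. A further activin-free ZIC2 peak, with a score of 365, also lay under the EpiSC peak. Scores of a broad peak and of narrower peaks over the same stretch cannot be compared directly.

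Pou3f4 (ENSMUSG00000056854.3, chrX:108009729-108010910, plus strand), known for its role in the inner ear, was the gene with most POU peaks for its size of window. POU3F1 had 16 EpiSC peaks with scores from 53.4 to 939 and 13 activin-free peaks with scores from 56.8 to 1332, and its density exceeded that of 98.5% of genes in EpiSCs. POU5F1 had 6 EpiSC peaks with scores from 52.5 to 155 and 10 activin-free peaks with scores from 96.7 to 1056. ZIC2 had 2 peaks in each culture, SOX2 had 1 and OTX2 had none. The ZIC2 peak over the gene had scores of 101 and 249, which are low beside those over the other class III genes in EpiSCs. The SOX2 peak had scores of 52.8 and 76.9, and its site, at chrX:108023136-108025910, 14.8 kb downstream, also held POU5F1 and POU3F1. All 6 EpiSC POU5F1 peaks overlapped POU3F1 peaks, at 5 sites, and all 5 sites were listed for both TFs in activin-free cells.

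At these 5 sites the POU5F1 score was higher in activin-free cells than in EpiSCs by a wide margin: 116 and 1009 at 41.0 kb upstream, 89.6 and 649 at 11.3 kb upstream, 52.5 and 1056 at 9.26 kb upstream, and 155 and 633 at 11.6 kb downstream. At the fifth, 14.8 kb downstream, 2 EpiSC peaks with scores of 63.6 and 58.4 lay over 1 activin-free peak with a score of 434. The POU3F1 scores of the same sites moved less, from 798 to 993, from 315 to 349, from 684 to 890, from 709 to 672 and from 939 to 1070, in the same order. A rise of POU5F1 scores was not particular to this gene, as given below for all peaks.

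Pou2f1 (ENSMUSG00000026565.9, chr1:167795285-167932809, minus strand), with 137525 bp the longest gene by far, had 86 EpiSC and 87 activin-free peaks. The numbers for ZIC2, OTX2, SOX2, POU5F1 and POU3F1 were 24, 19, 19, 8 and 16 in EpiSCs and 19, 26, 19, 13 and 10 in activin-free cells. Its SOX2 density, 8.00 peaks per 100 kb, was above that of 98.6% of genes in EpiSCs, although its SOX2 peaks were low, with scores from 53.8 to 238. Cd247 overlaps the end of Pou2f1, so peaks in its introns count for both genes. ZIC2 covered the TSS at chr1:167931139-167934033 with scores of 2226 and 3100. The POU3F1 peak at chr1:167861354-167866731 was 5378 bp wide, lay in an intron 68.8 kb downstream of the gene start and had a score of 3100 in both cultures. POU5F1 overlapped it with scores of 772 and 2018 and OTX2 with scores of 261 and 357, and the peak holds 2 octamers.

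The highest OTX2 peak at the 7 genes, at chr1:167907061-167909165 in an intron of Pou2f1, had a score of 684 in EpiSCs and 1405 in activin-free cells. Further sites of 3 TFs were 28.7 kb downstream, with scores of 124 for POU5F1, 68.1 for POU3F1 and 126 for SOX2, and 5.72 kb downstream, with 63.6 for POU5F1, 308 for POU3F1 and 152 for OTX2. All TFs of both sites were listed in activin-free cells, and OTX2 joined the former. Of the 18 sites at which POU5F1 and POU3F1 overlapped at the 7 genes, 6 were at Pou2f1, and 5 of these 6 were in its introns.

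Pou4f1 (ENSMUSG00000048349.6, chr14:104862737-104867216, minus strand) had 29 EpiSC and 34 activin-free peaks, with 7, 4, 5, 4 and 9 of ZIC2, OTX2, SOX2, POU5F1 and POU3F1 in EpiSCs and 8, 4, 9, 6 and 7 in activin-free cells. A ZIC2 peak lay over its TSS and overlapped a POU5F1 peak upstream, which in turn overlapped a SOX2 peak. The ZIC2 and SOX2 peaks did not touch. At this site, chr14:104866559-104868339, the EpiSC scores were 91.2 for ZIC2, 195 for SOX2 and 419 for POU5F1, and the activin-free scores were 133, 256 and 422, respectively. The POU5F1 score hardly moved there, unlike at most other sites. It was also the gene with the one site of 4 TFs in EpiSCs, at chr14:104871959-104874049, 5.79 kb upstream, with scores of 437 for ZIC2, 123 for OTX2, 50.5 for POU5F1 and 80.2 for POU3F1. In activin-free cells ZIC2, POU5F1 and POU3F1 were listed there with 435, 81.6 and 209, and OTX2 was not listed. An octamer lay within 100 bp of the midpoint of the POU5F1 peak and of the POU3F1 peak of this site in EpiSCs, whereas the stretch shared by all 4 peaks held no octamer, OTX or ZIC sequence. At 51.5 kb downstream, chr14:104815006-104816335, POU3F1 had scores of 1110 and 1790, POU5F1 of 50.7 and 211, and SOX2 of 57.0 and 58.2, with an octamer in the shared stretch.

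**Figure D3:**
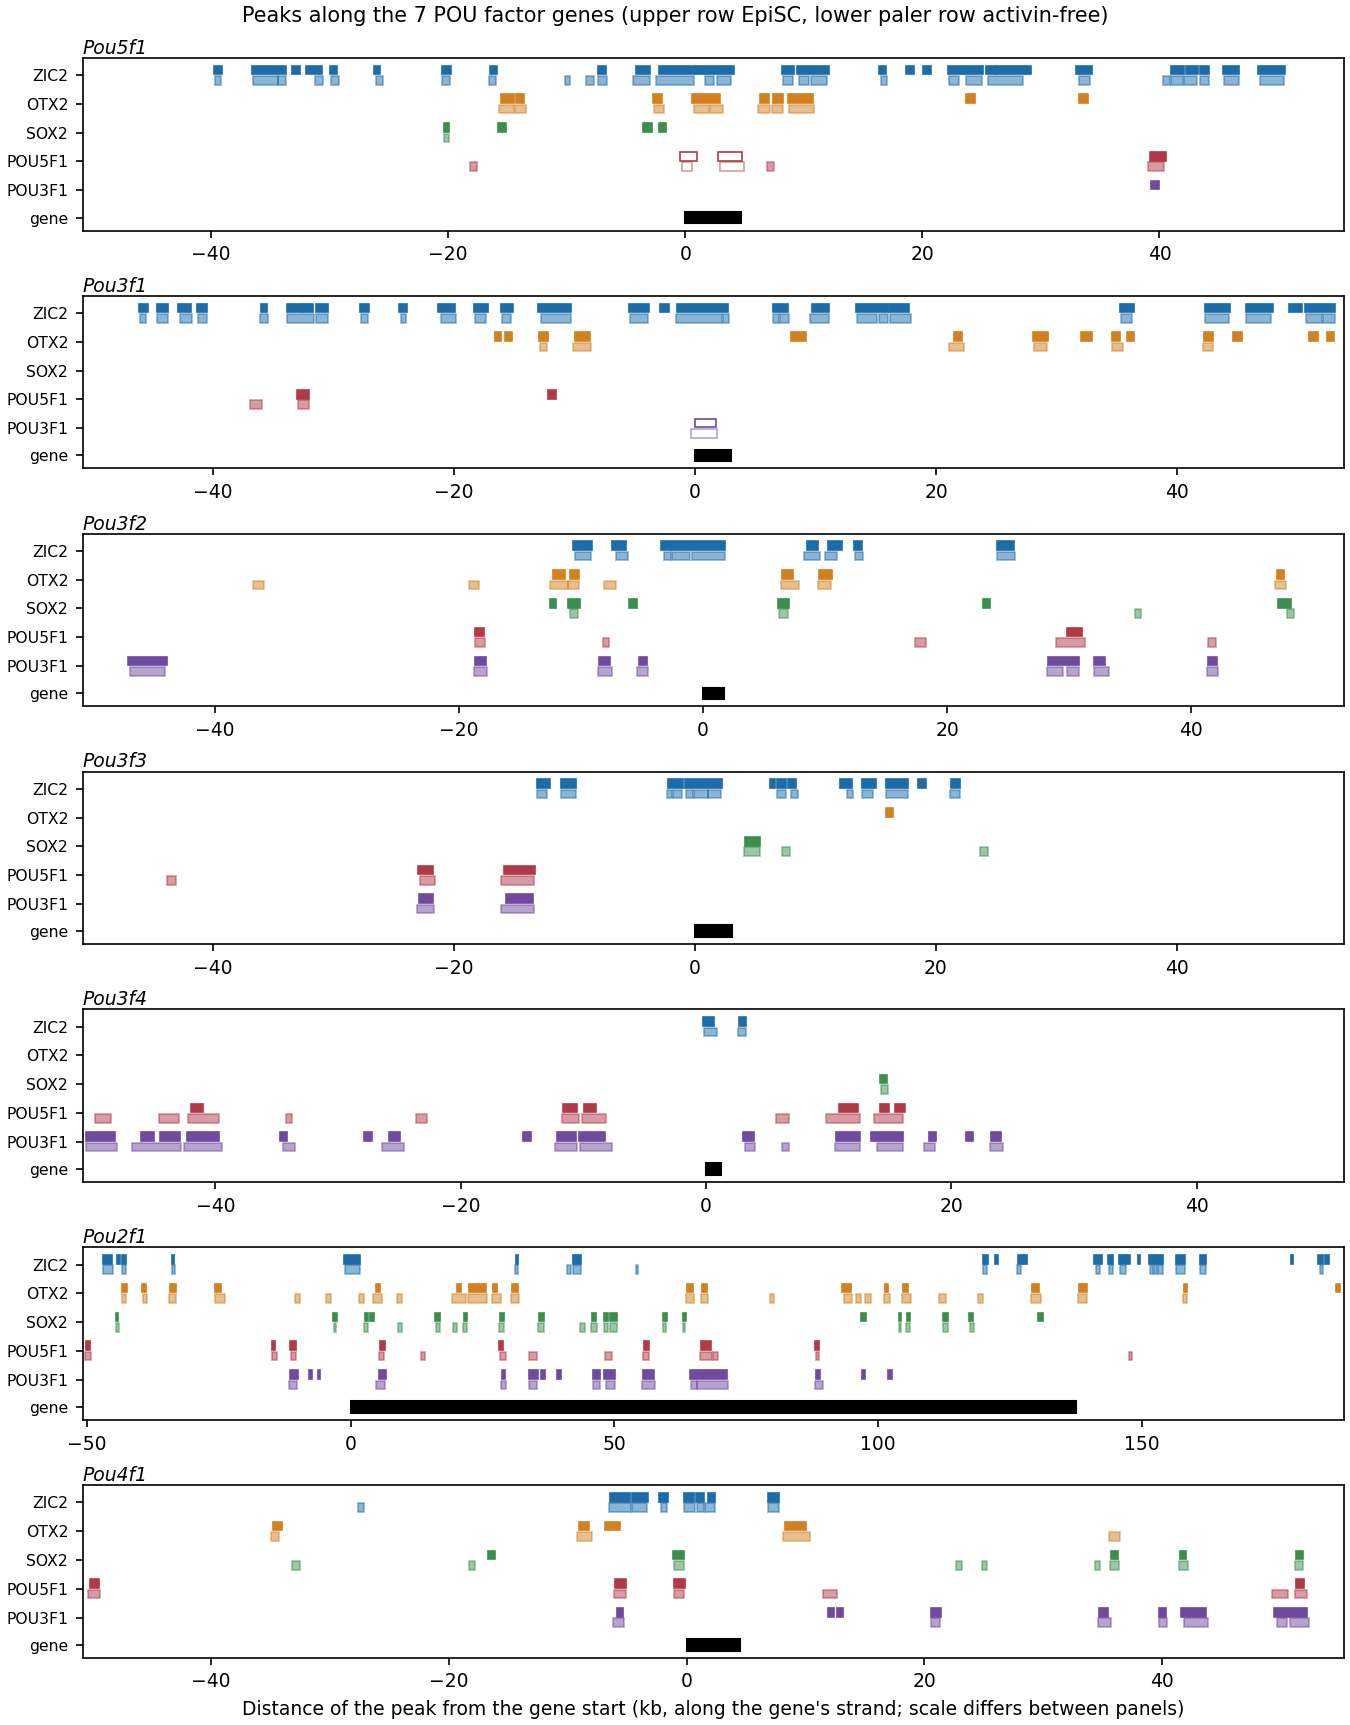
Position of every peak at each gene by distance from the gene start in kb, coloured by TF, the upper line of each TF for EpiSCs and the lower, paler one for activin-free cells. Open boxes are the peaks over coding exons of the own gene, kept apart. ZIC2 peaks lie over the start of all 7 genes, and POU3F1 peaks crowd the window of Pou3f4.

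A ZIC2 peak lay over a TSS of 7 of the 7 genes in both cultures, and of all genes 66.2% had one in EpiSCs and 64.4% in activin-free cells. In EpiSCs OTX2 had a peak over a TSS of 1 gene (15.5% of all genes), POU5F1 of 1 (1.99%), POU3F1 of 1 (3.39%) and SOX2 of 0 (2.93%), leaving the peaks over their own coding exons apart. The gene was Pou5f1 for OTX2 and, at an internal TSS, Pou2f1 for both POU5F1 and POU3F1. The ZIC2 peaks over the start varied from scores of 91.2 at Pou4f1 and 101 at Pou3f4 to 3100 at Pou3f1. Counting all ZIC2 peaks on coding exons, between 30.5% of the coding bases, at Pou2f1 in 3 peaks, and 100%, at Pou3f1, Pou3f2 and Pou3f3 in 1 peak each, were covered in EpiSCs. The annotated models of Pou3f2 and Pou3f4 contain little beyond the coding sequence, so distances there are counted from the start of the model. The 300 bp from 250 bp before to 50 bp after the gene start held CAGCAGG on either strand in 0 of the 7 genes and in 10.2% of all genes. Most peaks of every TF lay farther away: in EpiSCs 22.2% of the SOX2 peaks, 19.3% of ZIC2, 13.0% of OTX2, 8.00% of POU5F1 and 7.84% of POU3F1 had a midpoint within 5 kb of a TSS of the gene. The SOX2 share was 8 of 36 peaks (95% Wilson interval 11.7 to 38.1). Most of each window also lies farther than 5 kb from a TSS of the gene, and the same shares over all genes are not given here.

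The TFs were next compared for the sites they shared. Peaks of the EpiSC lists that overlapped by at least 1 bp made up 198 sites at the 7 genes, of which 145 had 1 TF, 43 had 2, 9 had 3 and 1 had 4. Sites of 2 or more TFs were thus 26.8% (95% Wilson interval 21.1 to 33.3, counting error only), and in activin-free cells 56 of 194, or 28.9%. The same share over all sites of the lists is not given here, so neither value is read as particular to the 7 genes. The highest share was that of POU5F1 with POU3F1: 76.0% of the POU5F1 peaks at the 7 genes (19 of 25, interval 56.6 to 88.5) overlapped a POU3F1 peak, against 51.7% of all POU5F1 peaks. In the other direction 35.3% of the POU3F1 peaks (interval 23.6 to 49.0) overlapped a POU5F1 peak, against 28.0% of all. OTX2 peaks overlapped ZIC2 peaks in 42.6% (interval 30.3 to 55.8), against 17.8% of all OTX2 peaks, and of these 23 peaks 8 were at Pou5f1 and 7 at Pou3f1. From the side of ZIC2 it was 19.3%, against 14.8%. The lowest share was that of ZIC2 with POU3F1, in 1.83% of the ZIC2 peaks (interval 0.505 to 6.44) and 1.16% of all ZIC2 peaks. Peaks of a gene share its window and base composition and are not independent, so the intervals are too narrow. In activin-free cells 64.3% of the POU5F1 peaks overlapped a POU3F1 peak (all peaks 46.3%), and 67.5% of the POU3F1 peaks, 27 of 40, overlapped a POU5F1 peak (interval 52.0 to 79.9, all peaks 54.6%). The first share was lower and the second higher than in EpiSCs, both at the 7 genes and over all peaks. For OTX2 with ZIC2 the activin-free share was 28.8% (all peaks 12.0%) and for ZIC2 with OTX2 16.8% (all peaks 12.7%).

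**Figure D4:**
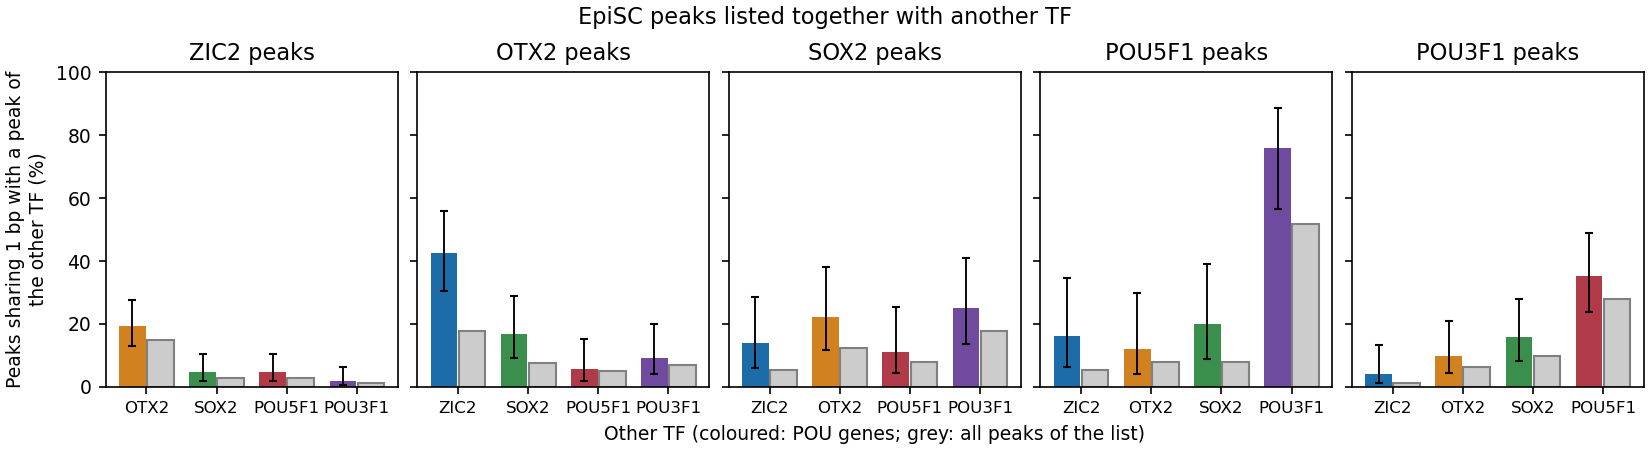
Percentage of the EpiSC peaks of each TF that share at least 1 bp with a peak of another TF. Coloured bars are peaks at the 7 POU genes with 95% Wilson intervals and grey bars all peaks of the list. The share of POU5F1 peaks that meet POU3F1 is 76.0% at the 7 genes and 51.7% over all peaks.

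The 18 joint sites of POU5F1 and POU3F1 were spread unevenly, with 6 at Pou2f1, 5 at Pou3f4, 2 each at Pou3f2, Pou3f3 and Pou4f1, 1 at Pou5f1 and 0 at Pou3f1. In activin-free cells 17 of the 18 (94.4%) again had both TFs, and over all EpiSC POU5F1 peaks that meet POU3F1 this share was 91.1%. The exception was the repeat-rich site downstream of Pou5f1. Of the 10 EpiSC sites of 3 or more TFs, 7 kept all their TFs (70.0%), as did 73.3% of the 10251 such sites over all lists. Those that did not were the ones at Pou5f1 (SOX2 not listed), Pou3f1 (POU5F1 not listed) and the site of 4 TFs at Pou4f1 (OTX2 not listed).

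An octamer (ATGCAAAT or ATGCATAT, either strand) lay within 100 bp of the midpoint in 13 of the 76 EpiSC peaks of POU5F1 and POU3F1 at the 7 genes, or 17.1% (interval 10.3 to 27.1), and in 12.3% of all peaks of these lists. For POU5F1 the share was 20.0% against 18.6% and for POU3F1 15.7% (interval 8.17 to 28.0) against 8.84%. Both shares over all peaks lay inside the intervals. By gene the EpiSC counts were small, with octamers in 4 of 13 peaks at Pou4f1, 3 of 9 at Pou3f2, 2 of 4 at Pou3f3, 3 of 24 at Pou2f1, 1 of 22 at Pou3f4 and in 0 of 2 at both Pou5f1 and Pou3f1. In the whole peak they were found in 9 of 22 at Pou3f4 and 7 of 9 at Pou3f2, and still in none at Pou5f1 or Pou3f1. The 2 peaks at Pou3f3 were the POU5F1 and POU3F1 peaks of 1 site. In activin-free cells 0 of 5 peaks at Pou3f3 had an octamer near the midpoint, while 2 held one in the whole peak. Alternating stretches of at least 20 bp were near the midpoint in 5 of 25 POU5F1 peaks (20.0%), against 29.6% of all. SOX sequences (ACAATG or ACAAAG) were near the midpoint in 58.3% of SOX2 peaks (all 57.4%), OTX sequences (GGATTA) in 16.7% of OTX2 peaks (all 23.6%) and ZIC sequences (CAGCAGG) in 23.9% of ZIC2 peaks (all 19.1%). In the activin-free lists the OTX share was 9.62% (interval 4.18 to 20.6), below the 21.8% of all OTX2 peaks, which lay outside the interval, and the octamer share of POU3F1 was 10.0% against 9.36% of all. A match is a description of the letters and does not show binding. In EpiSCs the mean GC content within 100 bp of the midpoint was lowest for POU3F1, at 32.7% ± 4.89 (SD over 51 peaks), followed by 35.5% ± 6.67 for POU5F1, 39.5% ± 5.37 for SOX2, 45.7% ± 7.34 for OTX2 and 56.7% ± 6.15 for ZIC2. In activin-free cells POU5F1 (32.3% ± 6.32, 42 peaks) and POU3F1 (32.8% ± 5.89, 40 peaks) differed by less than their SDs.

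In the comparison of cultures, 224 of the 275 EpiSC peaks at the 7 genes (81.5%, interval 76.4 to 85.6) met a peak of the same TF in the activin-free list, and over all EpiSC peaks the share was 82.1%. By TF it was 96.0% for POU5F1 (background over all peaks 98.3%), 85.3% for ZIC2 (78.9%), 77.8% for OTX2 (78.1%), 76.5% for POU3F1 (82.6%) and 72.2% for SOX2 (77.6%). From the activin-free side, 228 of 278 peaks (82.0%) met an EpiSC peak, against 69.3% of all. These were 97.5% for POU3F1 (86.8%), 94.4% for ZIC2 (91.2%), 54.8% for POU5F1 (47.1%), 75.0% for OTX2 (67.5%) and 70.3% for SOX2 (55.9%). From the EpiSC side every background lay inside the interval of its TF at the 7 genes. From the activin-free side the background lay below the interval for POU3F1 (87.1 to 99.6) and for all TFs together (77.1 to 86.1), where the TFs also make up other shares of the peaks than in the whole lists, and inside it for ZIC2, OTX2, SOX2 and POU5F1. Peaks without a counterpart had low scores, with a median of 75.6 for 51 EpiSC peaks and 196 for the 224 that met one. SOX2 was an exception, with medians of 84.7 for the 10 EpiSC peaks without a counterpart and 82.2 for the 26 with one. The SOX2 peak upstream of Pou5f1, with 2516, was far outside this range, since the next highest EpiSC peak without a counterpart had a score of 293.

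**Figure D5:**
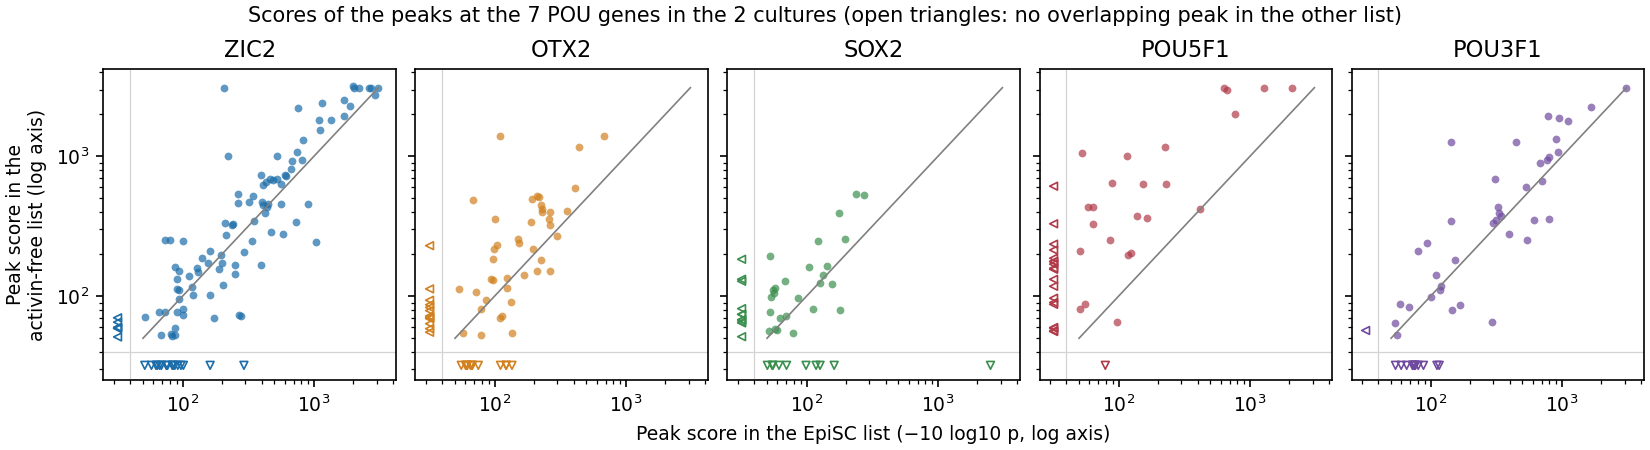
Score of each EpiSC peak at the 7 POU genes against that of the activin-free peak of the same TF sharing most bp with it. Both axes are logarithmic, and open triangles along them mark peaks listed in a single culture. POU5F1 points lie above the line of equal scores in 23 of 24 cases, and the SOX2 peak with a score of 2516 is the one high triangle on the EpiSC axis.

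Where a peak was listed in both cultures, the POU5F1 score was higher in activin-free cells for 23 of 24 peaks, with a median ratio of 2.85. Over all POU5F1 peaks met in both lists it was higher in 98.3%, with a median ratio of 3.83, so this was a feature of the library as a whole. The median ratios at the 7 genes and over all peaks were 1.43 and 1.34 for OTX2, 1.23 and 1.35 for SOX2, 1.19 and 1.12 for POU3F1, and 1.17 and 1.08 for ZIC2. The depth of the libraries enters the score and is unknown, and its part in these ratios was not tested.

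The protein-coding genes with the most similar peak densities over the 10 lists were found by Euclidean distance of log2(peaks per 100 kb + 1). They were Bckdha for Pou5f1 (distance 1.22), AI837181 for Pou3f1 (0.248), Tshb for Pou3f2 (1.06), Gsdmc4 for Pou3f3 (1.37), Olfr1033 for Pou3f4 (1.18), Lce3f for Pou2f1 (0.954) and Slc25a40 for Pou4f1 (1.01). Among the members the closest were Pou3f2 and Pou4f1 (1.59), Pou3f2 and Pou2f1 (1.62) and Pou2f1 and Pou4f1 (1.91). Pou5f1 and Pou3f1 were nearest each other at 2.79. Pou3f4 was farthest from these, at 8.66 from Pou5f1 and 8.98 from Pou3f1, so that members of the class III group stood at opposite ends.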

How the data were processed

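Per the labels and the study's methods, the authors sequenced DNA from streptavidin pulldown of BLRP-tagged TFs as single-end reads, used Bowtie2 to map them to mm9, and called peaks in each library by MACS1.4, with the input library as reference. The only input library among the samples was of EpiSCs grown with activin, so the activin-free culture had no input of its own. Every deposited peak has a position and a score, which was at least 50 in all lists. No list has columns of the authors' own comparisons.

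Here peaks were assigned to genes by GENCODE vM1 with flanks of 50 kb, counted, and divided by the window length. The same was done for all 22367 protein-coding genes. Overlap was counted from 1 bp, and peaks of different TFs that overlapped were joined into sites. Sequences were searched in mm9 within 100 bp of peak midpoints. Intervals are 95% Wilson intervals. The counting steps were tested on simulated lists. Versions were pysam 0.24.0, numpy 2.4.6, matplotlib 3.10.9 and scipy 1.17.1 under Python 3.11.15.

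The 7 genes and the rule for named sites (sites of 3 or more TFs, the highest peak of each TF and those at most 5 kb from a TSS) were chosen with earlier results of these data known. The joint sites of POU5F1 and POU3F1 were named for their sequence, and the 2 peaks with long alternating stretches, the OTX2 peaks of Pou3f1, the SOX2 peaks of Pou5f1 without a counterpart and the peaks found in activin-free cells alone were singled out after their values were seen. Alternatives covered the score, the flank, the overlap and the sequence search. Protein sequences were not used here, and a comparison with a further list of genes is not reported here.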

Additional observations from a re-analysis of the deposited data

How the results depend on the processing

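Of 26 alternatives, 8 moved a value by more than its counting interval or, for counts, by more than 1.5 times. Among the other 18, flanks of 25 kb gave 197 EpiSC and 200 activin-free peaks, flanks of 100 kb gave 404 and 414, and a score of at least 100 left 198 activin-free peaks. With a score of at least 100 the EpiSC peaks at the 7 genes went from 275 to 178 and the sites of 2 or more TFs from 53 to 30. With the 50000 highest-scoring peaks of every list there were 154 EpiSC peaks, and 150 instead of 278 in activin-free cells, so the activin-free total was above the EpiSC total as listed and below it here. Sites of 2 or more TFs fell to 19 when midpoints had to lie within 150 bp. The share of EpiSC peaks met in activin-free cells went from 81.5% to 72.4% when the overlap had to cover at least 50% of both peaks. The octamer share rose from 17.1% to 43.4% in the whole peak and to 71.1% with up to 1 mismatch, both of which offer more letters to match by construction. With a score of at least 100, POU3F1 had 11 EpiSC peaks at Pou3f4 against 1 of ZIC2, and ZIC2 21 at Pou5f1 against 0 of POU3F1, but in activin-free cells POU3F1 and POU5F1 had 9 each at Pou3f4. Depth is unknown, so absence from a list shows only that no peak passed the threshold in that library. No paired analysis was possible because each group is 1 library and the results come from no test.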
